A study of Mus musculus with 53 samples.

Results

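The genes described here are 39 genes of DNA replication and mitosis, from origin licensing to cytokinesis, in mouse embryonic stem (ES) cells labelled null for a Polycomb gene and in cells differentiated from ES cells. A gene was taken where the platform annotation holds a probe set with that symbol alone, and where several do, the brightest on average across the 53 arrays was used. This gave 38 of the 39 genes, out of 18193 genes with such a probe set, and all 38 passed the filter on dim probe sets that left 13807 genes for testing. Ccnb1, the main mitotic cyclin B, has no such probe set and is not described. The study measured RNA on Affymetrix arrays to ask how loss of Ezh2 or Eed changes expression in undifferentiated and differentiating ES cells. Ezh2-null ES cells were sampled before withdrawal of LIF, the cytokine that keeps ES cells undifferentiated (day 0, 6 arrays), and after 2 days (4 arrays), 6 days (5) and 8 days (2) of withdrawal. ES cells labelled Eed-null were sampled at day 0 (5), day 2 (2) and day 6 (2). Cells carrying a GFP reporter of T (mesoendoderm, 2 arrays) or of Sox1 (neuronal progenitors, 3), neuronal stem cells (2) and MEF, fibroblasts of mouse embryos (2), were measured as well. Wild-type ES cells of the lines J1, CJ7 and E14tg1 gave 7 arrays at day 0, J1 and CJ7 gave 4 at day 2 and 5 at day 6, and CJ7 alone gave 2 at day 8. The labels name no line or clone for the mutants, so genotype and line cannot be told apart. The ES cells, mutant and wild type, grew on feeder fibroblasts that were depleted before harvest. The labels call the replicates biological and do not say what was repeated, so p-values measure the spread between these arrays.

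Replication begins when the origin recognition complex, Cdc6 and Cdt1 load the ring-shaped Mcm2-7 helicase on DNA. The kinases that later drive mitosis, Cdk1, Plk1 and the Aurora kinases, act on a spindle and on kinetochores whose parts are themselves made anew in each cycle. Transcription of these genes is tied to the cell cycle: E2F factors act on many replication genes, and a complex of MuvB with B-Myb (Mybl2) and Foxm1 acts on many mitotic genes through a short promoter element, the cell cycle genes homology region (CHR), often near a CCAAT box. ES cells cycle fast with a short G1 phase, and the cycle lengthens as they differentiate. Ezh2 is the histone H3 methyltransferase of Polycomb repressive complex 2 and Eed is a subunit that it needs, and the cyclin-dependent kinase inhibitors of the Cdkn2a-Cdkn2b locus are classical targets of this complex. In RNA from a cell population, fewer cells in a phase of the cycle and less RNA per cell cannot be told apart.

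Promoter windows of 300 bases, from 250 before to 50 after the gene start, were found in RefSeq (build GRCm38.p6) for 32 of the 38 members. The CHR was searched as TTTGAA or TTCGAA, the CCAAT box as CCAAT, and the E2F element as TTTCCCGC, TTTCGCGC, TTTGCCGC or TTTGGCGC, on both strands. No motif contains another. A CHR match lay in 14 of 18 mitosis genes (77.8%), in 3 of 14 replication genes and transcription factors (21.4%), and in 21.7% of all 27025 genes with a window. A CCAAT box lay in 16 of the 18 mitosis genes (88.9%) and in 9 of the 14 others (64.3%), against 41.1% of all genes. An E2F match lay in 1 of the 18 mitosis genes (5.56%) and in 6 of the 14 others (42.9%), against 2.6% of all genes. All 14 mitosis genes with a CHR match also had a CCAAT box (77.8%), against 9.65% of all genes with both. A match is a description of letters and no evidence of binding. The windows shown are those of the 3 mitosis genes and the 3 replication genes with the largest falls in Ezh2-null cells of day 6, replicates 3-5. Matches to any of the motifs are in capitals, 5′ to 3′ on the gene's strand. Cenpf lies at chr1:189688037-189688336 (minus strand), Kif23 at chr9:61946750-61947049 (minus strand), Plk1 at chr7:122159185-122159484 (plus strand), Cdc6 at chr11:98907901-98908200 (plus strand), Top2a at chr11:99024140-99024439 (minus strand) and Mcm3 at chr1:20820263-20820562 (minus strand).
Cenpf: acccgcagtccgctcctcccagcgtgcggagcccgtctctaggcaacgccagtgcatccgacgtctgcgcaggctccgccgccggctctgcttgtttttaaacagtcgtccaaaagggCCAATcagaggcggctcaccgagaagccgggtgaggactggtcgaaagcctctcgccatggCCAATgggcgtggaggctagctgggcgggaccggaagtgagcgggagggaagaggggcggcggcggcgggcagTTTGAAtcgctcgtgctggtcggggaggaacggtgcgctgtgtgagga
Kif23: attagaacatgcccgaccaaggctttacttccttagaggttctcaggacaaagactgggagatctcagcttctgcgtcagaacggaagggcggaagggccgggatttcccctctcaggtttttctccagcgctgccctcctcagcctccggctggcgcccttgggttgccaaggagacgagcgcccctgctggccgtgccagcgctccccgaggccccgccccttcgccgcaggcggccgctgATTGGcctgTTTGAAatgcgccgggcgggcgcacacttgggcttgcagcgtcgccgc
Plk1: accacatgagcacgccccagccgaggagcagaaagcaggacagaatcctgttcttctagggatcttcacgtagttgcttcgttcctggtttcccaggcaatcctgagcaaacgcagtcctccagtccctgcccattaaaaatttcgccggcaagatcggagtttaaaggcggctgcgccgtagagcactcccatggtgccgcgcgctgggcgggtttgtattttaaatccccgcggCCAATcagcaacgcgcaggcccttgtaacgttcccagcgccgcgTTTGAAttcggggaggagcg
Cdc6: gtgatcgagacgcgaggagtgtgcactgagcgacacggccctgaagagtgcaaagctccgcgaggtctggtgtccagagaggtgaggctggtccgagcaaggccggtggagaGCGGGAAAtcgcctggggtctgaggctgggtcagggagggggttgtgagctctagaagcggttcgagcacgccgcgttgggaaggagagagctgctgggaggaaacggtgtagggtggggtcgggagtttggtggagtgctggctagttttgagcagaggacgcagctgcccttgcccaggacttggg
Top2a: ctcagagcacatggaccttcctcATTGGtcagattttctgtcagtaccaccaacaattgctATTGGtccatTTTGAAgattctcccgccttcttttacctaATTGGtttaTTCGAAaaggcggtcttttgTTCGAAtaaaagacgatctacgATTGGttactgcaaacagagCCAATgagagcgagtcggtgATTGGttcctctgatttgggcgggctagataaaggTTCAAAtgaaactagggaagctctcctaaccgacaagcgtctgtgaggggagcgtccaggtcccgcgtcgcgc
Mcm3: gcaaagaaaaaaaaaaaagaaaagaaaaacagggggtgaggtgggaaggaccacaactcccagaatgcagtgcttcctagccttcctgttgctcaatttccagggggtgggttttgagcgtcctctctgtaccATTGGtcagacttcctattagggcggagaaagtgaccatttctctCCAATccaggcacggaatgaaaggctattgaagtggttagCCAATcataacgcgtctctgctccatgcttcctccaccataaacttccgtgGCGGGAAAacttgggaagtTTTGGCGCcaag
The windows of Cenpf, Kif23 and Plk1 each hold 1 CHR match within 50 bases after the gene start and at least 1 CCAAT box before it. The window of Top2a holds 4 CHR matches and 6 CCAAT boxes, and those of Cdc6 and Mcm3 hold E2F matches (1 and 2) and no CHR match.

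**Figure D1:**
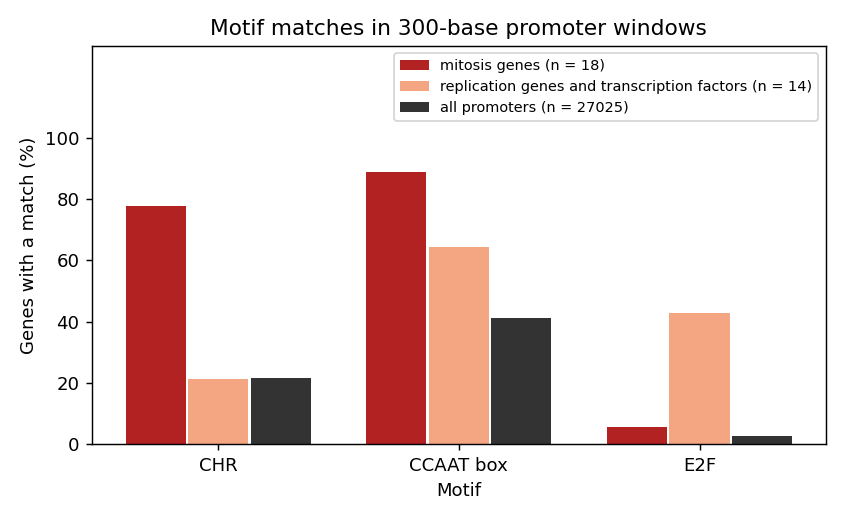
Share of genes whose 300-base promoter window holds a match to the CHR, the CCAAT box or the E2F letters (vertical axis, percent of genes), for 18 mitosis genes, 14 replication genes and transcription factors, and all 27025 genes with a window. CHR matches are most frequent in the mitosis genes (77.8%) and E2F matches in the replication genes and transcription factors (42.9%).

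The values are signal units of 1 probe set, and log2 differences are taken on log2(signal + 32), given as the estimate ± its standard error (SE). A gene passed at a Benjamini-Hochberg adjusted p under 0.05 over all 13807 genes in limma, and "rose" and "fell" are used of genes that passed. The Ezh2 probe set gave 169 to 246 in the Ezh2-null arrays of day 0, against 1185 to 1786 in wild type, and 52.6 to 152.5 at day 6, against 704 to 851. The Eed probe set was not lower in the arrays labelled Eed-null (2819.9 to 3099 at day 0, against 2172 to 2885), so it does not check that label. Marker sums set the other cells apart from wild type at day 0. Streak and mesoderm markers, without T, summed to 4285 and 2609.5 in T-GFP arrays and 147 to 239.9 in wild type at day 0. Wild-type replicates 3-5 of day 6 reached 3290.9 to 4109.6, so this sum does not single out T-GFP cells. Neural progenitor markers summed to 2062 to 2072 in Sox1-GFP arrays and 433 to 565 in wild type at day 0. Neural stem cell markers summed to 10897.3 and 11201.4 in neuronal stem cells (497.6 to 597.5 in wild type at day 0). Fibroblast markers summed to 33601.2 and 38423.0 in MEF (364.2 to 1809.8). A score from pairs of probe sets of 1 gene split the arrays of days 2 and 6. Wild-type and Ezh2-null replicates 3-4 at day 2 and 3-5 at day 6, with all labelled Eed-null arrays of these days, scored 16.7 to 23.8. All other arrays scored -20.7 to 7.3 and were spread more widely. Among them, wild-type replicates 1-3 of day 0 lay at -10.6 to -8.1 and replicates 4-7 at -2.1 to -0.2. Replicates 1-2 of day 6, of both genotypes, lay at -15.4 to -8.2. Day 6 is therefore given by replicates 1-2 and 3-5, and a comparison of replicates 3-5 with day 0 also crosses these sets of arrays. Ezh2-null replicate 3 of day 6 stood apart: its ES cell markers summed to 1236, against 7929 and 6375 in replicates 4 and 5 and 2266 to 2422 in wild-type replicates 3-5.

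The median over the 38 members of the log2 difference from the wild-type day 0 mean set 1 group apart. It was -2.36, -1.26 and -1.52 in Ezh2-null replicates 3, 4 and 5 of day 6, and -0.43 and -0.69 in Ezh2-null replicates 1 and 2. It was -0.60 and -0.65 in the labelled Eed-null arrays of day 6, and between -0.46 and -0.36 in the 5 wild-type arrays of that day. No other array lay below the -0.95 of 1 MEF array. Of the 38 members, 22 had their 3 lowest values of all 53 arrays in Ezh2-null replicates 3-5, and 33 had the lowest value of all in replicate 3. This order was not counted over all genes, so these counts only describe the members.

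**Figure D2:**
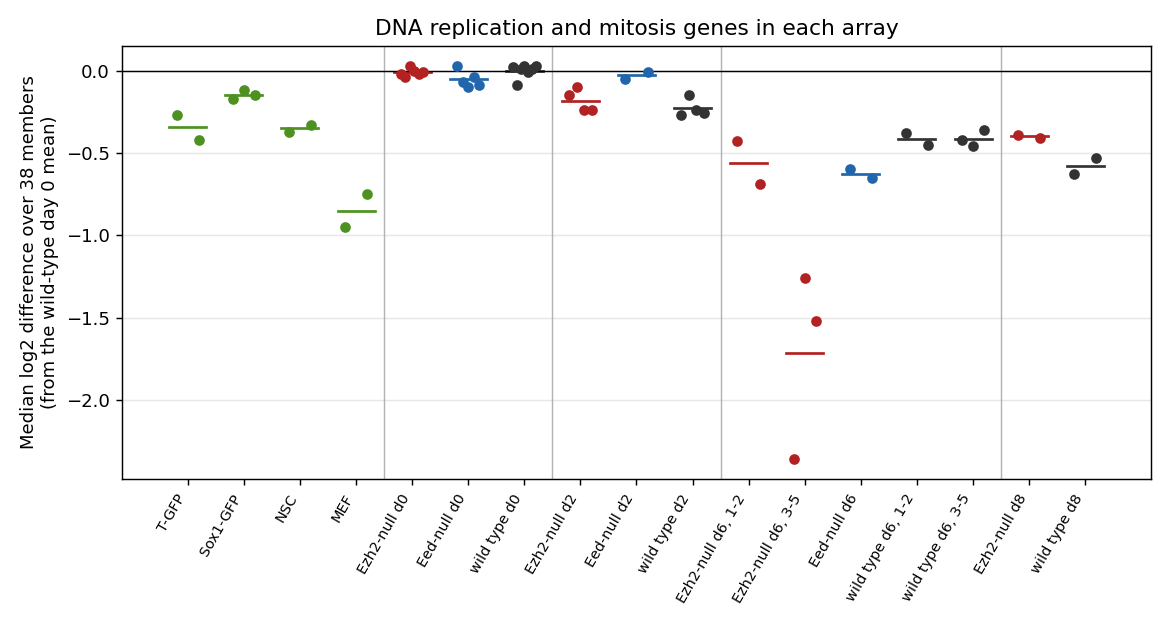
Each point is 1 array: the median over the 38 members of the log2 difference from the wild-type day 0 mean (vertical axis), by group and day (d), with replicates 1-2 and 3-5 of day 6 apart; bars are group means. The 3 Ezh2-null arrays of replicates 3-5 lie at -2.36 to -1.26, and the 2 MEF arrays at -0.95 and -0.75.

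At day 6, replicates 3-5, replication and mitosis genes were lower together in Ezh2-null cells. Of the 38 members, 35 fell and none rose, where 17.4% of all genes tested fell and 12.9% rose. The median log2 difference was -1.24 over the members and -0.02 over all genes tested. At least 2-fold falls were seen for 27 members, against 2.91% of all genes. In 35 members the highest Ezh2-null value was under the lowest wild-type value, against 26.1% of all genes. The 3 members that did not pass were Tyms, E2f1 and Mybl2. The SE and p-values pool the spread over all 17 means. The array medians over the members had an SD of 0.57 in Ezh2-null replicates 3-5, against 0.01 to 0.18 in the other groups. The pooled spread can thus understate that of these 3 arrays. In a fit of only the arrays compared, 32 members passed, all lower. The Ezh2-null and wild-type arrays come from 1 set by the probe set score. When the change from day 0 was compared between the genotypes, 35 members passed, all lower (median -1.23, 14.9% of all genes lower). At day 0 no member passed between the genotypes (median -0.02), so this largely repeats the day 6 difference and is no separate support.

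Among the licensing genes all 8 fell. Cdc6, which loads the helicase, gave 80.6, 197 and 173 in Ezh2-null arrays of replicates 3-5, against 598, 442 and 442 in the wild-type arrays of those numbers. Cdt1, its partner in loading, gave 265, 898 and 796 in Ezh2-null arrays of replicates 3-5, against 1496, 1502 and 1735 in the wild-type arrays of those numbers. For both genes the groups did not overlap, and the log2 differences were -1.58 ± 0.24 (adjusted p = 1.1e-06) and -1.39 ± 0.19 (adjusted p = 1.5e-07). The 6 helicase subunits fell by different amounts, Mcm3 most (-1.49 ± 0.17) and Mcm7 least (-0.45 ± 0.12). Mcm2 lay at 726, 1544 and 1497 in Ezh2-null arrays, against 1866, 1967 and 2018 in wild type, a fall of 0.70 on the log2 scale. Of the fork and nucleotide genes 4 of 5 fell: Top2a, the topoisomerase that untangles sister DNA (-1.58 ± 0.15), both subunits of ribonucleotide reductase (Rrm1, -1.27 ± 0.13, and Rrm2, -0.99 ± 0.18), and the sliding clamp Pcna (-1.01 ± 0.14). Tyms, thymidylate synthase, did not pass (-0.14 ± 0.15), but its probe set is dim, and another Tyms probe set, dimmer still, was lower (-0.48, adjusted p = 0.0025).

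Among the mitosis genes all 22 fell. Cenpf, a large protein of the outer kinetochore, gave 117, 297 and 253 in Ezh2-null arrays of replicates 3-5, against 757, 681 and 760.1 in the wild-type arrays of those numbers. Kif23, the kinesin of the central spindle, gave 82.8, 232 and 190.2 in Ezh2-null arrays of replicates 3-5, against 493, 579 and 630.4 in the wild-type arrays of those numbers. Plk1, the Polo kinase that drives mitotic entry and spindle assembly, gave 293, 705 and 503 in Ezh2-null arrays of replicates 3-5, against 1299.8, 1666 and 1599 in the wild-type arrays of those numbers. In all 3 genes replicate 3 was lowest and all 3 Ezh2-null arrays lay well below the wild-type ones. The log2 differences were -1.67 ± 0.18 (adjusted p = 8.7e-10), -1.66 ± 0.17 (adjusted p = 3.6e-10) and -1.62 ± 0.16 (adjusted p = 1.1e-10). All 7 mitotic kinases and checkpoint kinases fell, from Bub1 (-1.57 ± 0.24) to Bub1b (-0.47 ± 0.10), both of which act in the spindle checkpoint. Aurka, the centrosomal Aurora kinase, fell by 1.23 and Aurkb, the kinase of the chromosomal passenger complex, by 1.34 on the log2 scale. Birc5 (survivin), of the same complex, gave 425, 922 and 845 in Ezh2-null arrays of replicates 3-5, against 2315, 1874 and 2000.1 in the wild-type arrays of those numbers, a fall of 1.52. The 3 cyclin and Cdk members fell by 1.19 to 1.37, and the 6 spindle and cytokinesis genes by 0.75 (Tpx2) to 1.66 (Kif23). Mki67, the proliferation marker Ki-67, gave 252, 421 and 309 in Ezh2-null arrays of replicates 3-5, against 871, 1055 and 1139 in the wild-type arrays of those numbers, a log2 difference of -1.57 ± 0.15 (adjusted p = 6.3e-11). Cdc20, which activates the anaphase-promoting complex, fell by 0.60.

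Of the 3 transcription factors 1 fell, Foxm1, by 0.60 (258, 239 and 254 in Ezh2-null arrays, against 360.3, 414 and 416 in wild type). E2f1 gave 693, 650.5 and 630.0 in Ezh2-null arrays, against 626, 864 and 666 in wild type, and did not pass (-0.11 ± 0.16). Mybl2 gave 167, 680.1 and 485, against 299.9, 305 and 313, with replicate 3 below and replicates 4 and 5 above every wild-type array (0.31 ± 0.29). Without Ezh2-null replicate 3 the median over the members was -0.88 in place of -1.24, and 32 members fell. Mcm2 (-0.35), Mcm7 (-0.15) and Cdc20 (-0.23) then no longer passed, and Mybl2 rose (0.84, adjusted p = 0.016). Cenpf, Kif23 and Plk1 then had log2 differences of -1.32, -1.30 and -1.30. Streak and mesoderm markers summed to 183 to 261 in Ezh2-null replicates 3-5, against 3291 to 4109.6 in wild type, and their part in the result was not tested. Fibroblast markers summed to 1782 to 2379, against 1649 to 1906.

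Several members have more than 1 probe set. Of all 94 probe sets of the 38 members, 65 fell and none rose in this comparison, and of the 28 not chosen with a mean of 200 or more, 24 fell. A second Cenpf probe set did not pass (-0.11, adjusted p = 0.64), nor did those of Prc1 (-0.30, adjusted p = 0.11) and Cenpe (-0.84, adjusted p = 0.19). With the mean over all probe sets of a gene, 37 members fell and the median was -0.92.

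**Figure D3:**
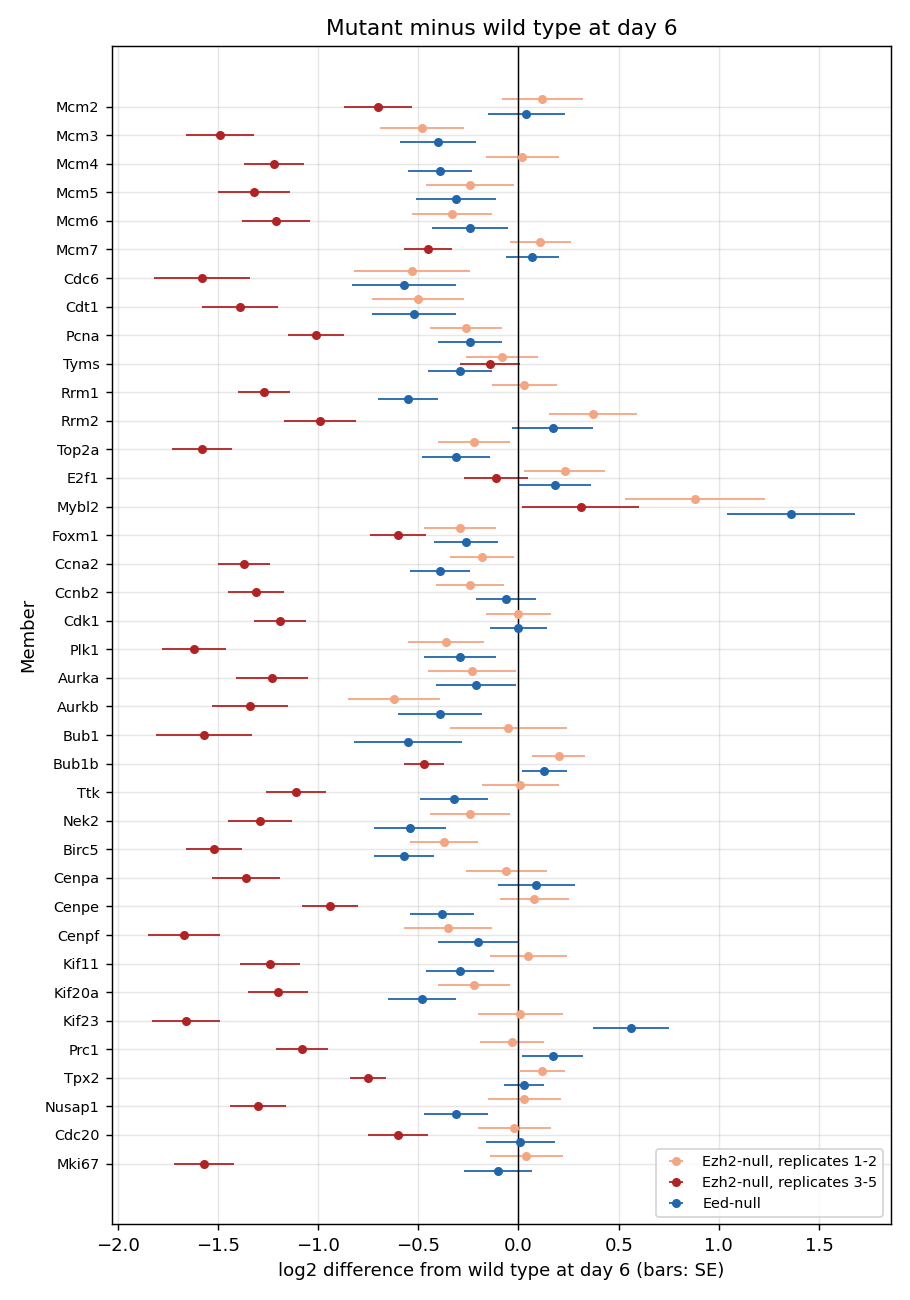
Log2 difference from wild type at day 6 (horizontal axis, bars ± SE) for each of the 38 members, ordered by role, in Ezh2-null replicates 1-2, Ezh2-null replicates 3-5 and labelled Eed-null cells. In replicates 3-5 all members but Mybl2 lie below 0, with Cenpf at -1.67, while in replicates 1-2 none passed.

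In replicates 1-2 of day 6 no member passed between Ezh2-null and wild-type cells, where 4.90% of all genes rose and 2.45% fell, and the median was -0.05. At an unadjusted p under 0.05 there were 5 members. The change from day 0 to these arrays also differed between the genotypes in no member (3.16% of all genes higher and 1.47% lower, 3 members at an unadjusted p under 0.05). Cenpf gave 838 and 630.1 in Ezh2-null replicates 1-2, against 948 and 918 in wild-type replicates 1-2. Kif23 gave 685 and 469 in Ezh2-null replicates 1-2, against 631 and 500.4 in wild-type replicates 1-2, and Plk1 gave 956 and 759.7 in Ezh2-null replicates 1-2, against 1198 and 1021 in wild-type replicates 1-2. Kif23 and Mki67 overlapped between the groups, whereas both Ezh2-null arrays lay below both wild-type arrays for Cenpf and Plk1. Both lay below in 16 of the 38 members and above in 3, against 3306 and 4769 of all 13807 genes. Mki67 gave 1374 and 934 in Ezh2-null replicates 1-2, against 1115 and 1084 in wild-type replicates 1-2. Fibroblast markers summed to 6229 and 4179 in Ezh2-null replicates 1-2, against 1792 and 2030.3 in wild type, and their part was not tested.

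The difference between the sets of replicates was itself tested, as a comparison chosen after the data were seen. The Ezh2-null effect was more negative in replicates 3-5 than in replicates 1-2 for 28 members, against 3.8% of all genes, and less negative for none (1.12%), with a median difference of -1.05. Kif23 (-1.67 ± 0.27), Mki67 (-1.61 ± 0.24) and Bub1 (-1.52 ± 0.38) differed most. Without Ezh2-null replicate 3 the count was 21 and the median -0.77. Within Ezh2-null cells alone, 34 members were lower in replicates 3-5 than in replicates 1-2 (29.5% of all genes, median -1.19) and none was higher (15.3%). Within wild type 2 members were lower (Mcm3 and Aurkb, 13.9% of all genes) and 4 higher (Tpx2, Cdk1, Foxm1 and Rrm1, 10.3%), with a median of -0.08. Wild-type replicates 1, 2 and 3 of day 6 are J1 and replicates 4 and 5 are CJ7. Comparisons of the sets that use wild-type arrays therefore also mix lines, and the part of the line was not tested.

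In cells labelled Eed-null few members passed at day 6. Against wild-type replicates 3-5, of the same set of arrays, 2 members rose and 4 fell, where 8.51% of all genes rose and 6.98% fell, and the median was -0.27. Mybl2 gave 859.8 and 807 in labelled Eed-null arrays, against 299.9, 305 and 313 in wild type, 1.36 ± 0.32 (adjusted p = 0.0019). Kif23, among the largest falls in Ezh2-null cells, gave 849 and 847, against 493, 579 and 630.4, 0.56 ± 0.19 (adjusted p = 0.038). Both arrays lay above all wild-type arrays in both genes. The falls were those of Birc5 (1397 and 1350.5, against 2315, 1874 and 2000.1, -0.57 ± 0.15), Rrm1 (1258 and 1253, against 1672, 1934 and 1979.7, -0.55 ± 0.15), Nek2, a centrosomal kinase (225 and 207, against 375, 289 and 323, -0.54 ± 0.18), and Kif20a, a kinesin of cytokinesis (344 and 330.0, against 418, 464 and 584, -0.48 ± 0.17). The count rests on each of the 2 labelled Eed-null arrays, since 2 members passed without replicate 1 and 1 without replicate 2. Set against each other within day 6, Ezh2-null replicates 3-5 were lower than the labelled Eed-null arrays in 35 members (7.07% of all genes, median -0.96) and higher in none (3.74%), with Kif23 at -2.22 ± 0.19. Without Ezh2-null replicate 3 the count was 25 and the median -0.63. Compared with the change from day 0 in wild type, the change in labelled Eed-null cells differed in 5 members, higher for Kif23 (0.68 ± 0.23, 10.3% of all genes) and lower for Aurkb, Mcm3, Mcm4 and Birc5 (-0.70 to -0.52, 11.8%).

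At day 0 and day 2 no member passed in Ezh2-null cells against wild type. At day 0 (1.27% of all genes rose and 0.84% fell) the median was -0.02 and 1 member had an unadjusted p under 0.05. Cenpf averaged 1350.0 ± 58.7 in Ezh2-null and 1283 ± 208 in wild-type cells (SD, n = 6 and 7), and Plk1 1772 ± 78.8 and 1643 ± 245. At day 2 no member passed either (1.13% and 0.92% of all genes), with a median of 0.04 and 2 members at an unadjusted p under 0.05. Replicate numbers paired the arrays at day 2, and with the number as a block Foxm1 was lower (-0.27, adjusted p = 0.019). At day 8 Mybl2 and Bub1b rose in Ezh2-null cells, where 3.19% of all genes rose, and none fell (1.58%). Mybl2 gave 1054 and 1021 in Ezh2-null arrays, against 294 and 284 in wild type, 1.74 ± 0.35 (adjusted p = 0.0012). Bub1b gave 1340.4 and 1299.7, against 902 and 987, 0.47 ± 0.13 (adjusted p = 0.018), and did not pass once any 1 of the 4 arrays was left out (adjusted p from 0.059 to 0.27). Cenpf, Kif23 and Plk1 at day 8 lay at 745 and 733, 542 and 472, and 1004 and 1022 in Ezh2-null arrays, against 707 and 853, 380.0 and 439.9, and 823 and 924 in wild type. For all 3 genes both Ezh2-null arrays of day 8 lay above the Ezh2-null arrays of day 6, replicates 3-5, which are of the other set of arrays, while for Cenpf and Kif23 they overlapped replicates 1-2 of day 6, of the same set. Fibroblast markers summed to 5444 and 5265 in Ezh2-null and 7870.2 and 6774 in wild-type arrays of day 8.

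Undifferentiated cells labelled Eed-null differed from wild type in 10 members, 2 higher and 8 lower, where 27.4% of all genes rose and 20.8% fell. The share of members lower was thus near that of all genes, and the share higher was smaller. Ttk, the Mps1 kinase of the spindle checkpoint, gave 438, 415, 379, 391 and 389 in labelled Eed-null arrays, against 695 to 869.6 (median 755) in wild type. The groups were far apart, with a log2 difference of -0.87 ± 0.11 (adjusted p = 3.4e-08). Rrm1 gave 1189.6, 938, 1186, 1007 and 1088, against 1480.4 to 1654 (median 1585), -0.53 ± 0.10 (adjusted p = 1.8e-05), again with no overlap. Kif20a gave 674, 573, 607, 638 and 639, against 723 to 1039 (median 986), -0.49 ± 0.11 (adjusted p = 0.00023). E2f1 rose, with 587, 762, 761, 674 and 672, against 397 to 524 (median 489), 0.49 ± 0.12 (adjusted p = 0.00057). Mcm2 gave 3187, 2840.1, 2766, 2803 and 2937, against 1671 to 2659 (median 2561), 0.37 ± 0.12 (adjusted p = 0.0097), with all 5 arrays above every wild-type array, but it did not pass against wild-type replicates 4 to 7 alone (0.15, adjusted p = 0.32). Fibroblast markers summed to 3833 to 7339.8 in 4 labelled Eed-null arrays and to 496 in replicate 5, against 364 to 1809.8 in wild type, and Ttk in replicate 5 was 389. At day 2 Mybl2 (1494 and 1639, against 464, 449.5, 874 and 868, 1.27 ± 0.30 (adjusted p = 0.0059)) and Kif23 (1049.6 and 1086, against 642, 657, 728 and 765, 0.59 ± 0.18 (adjusted p = 0.032)) were higher, where 3.57% of all genes rose, and none fell (5.12%). Neither passed once either labelled Eed-null array was left out, Kif23 did not pass without wild-type replicate 1 or 2, and against wild-type replicates 3-4, of the same set of arrays, Mybl2 alone passed (0.82, adjusted p = 0.049).

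**Figure D4:**
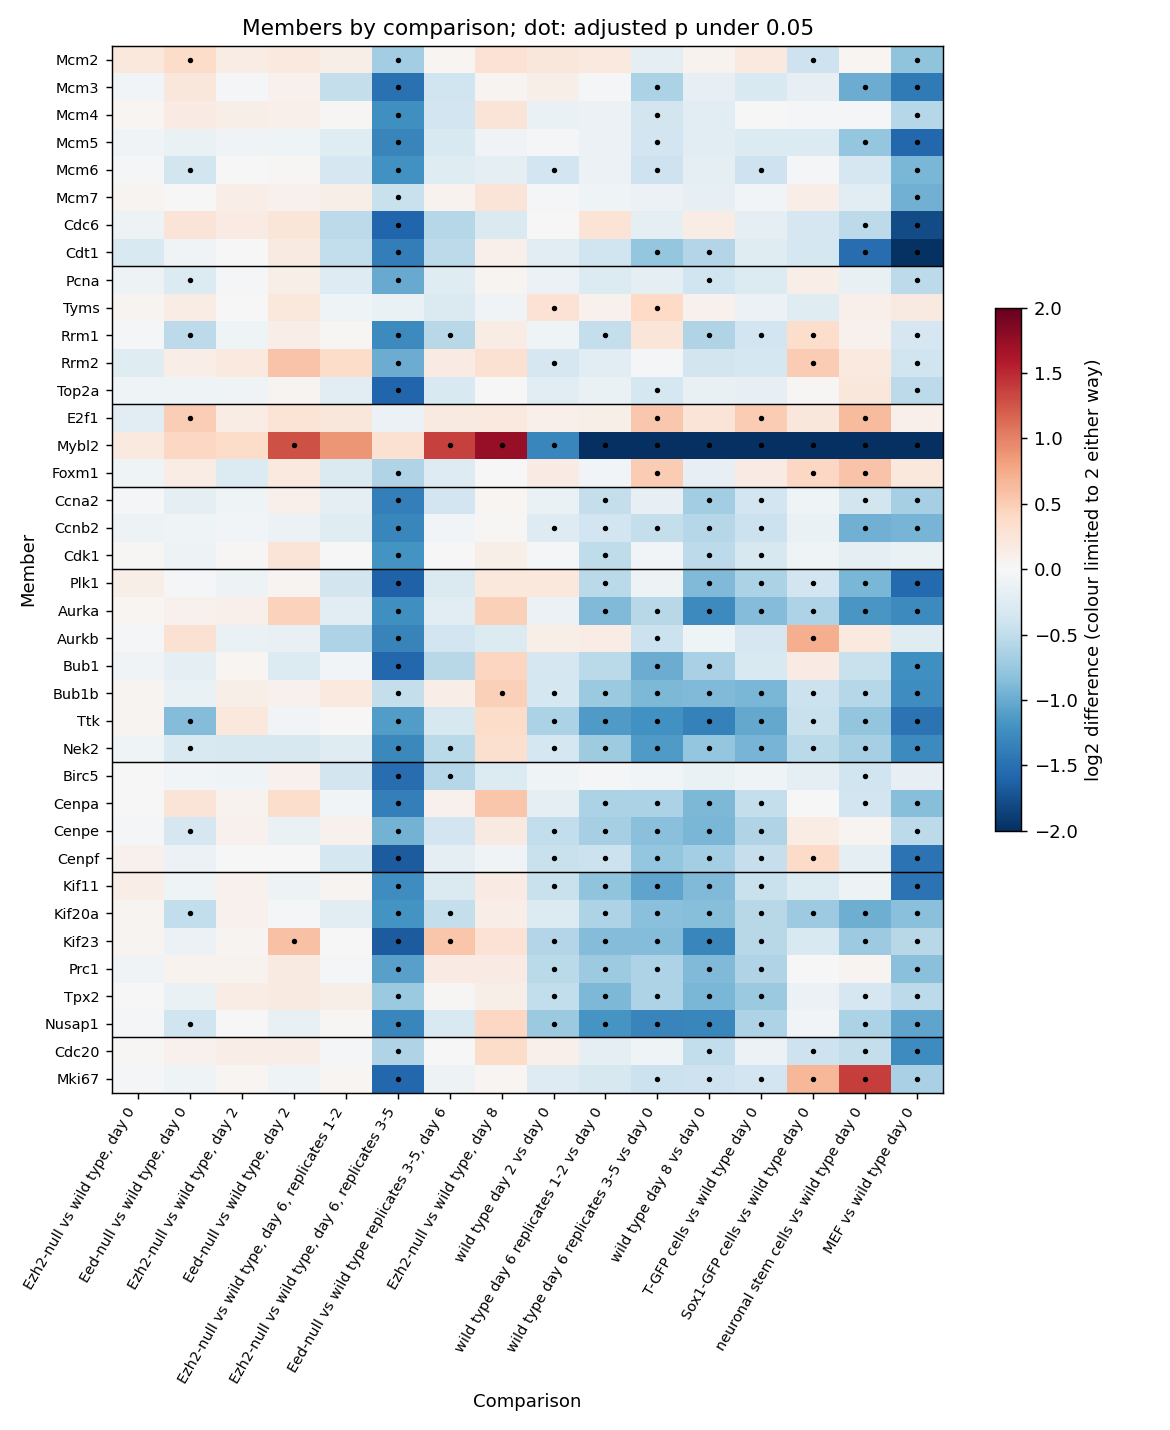
Log2 differences of the 38 members (rows, grouped by role) in the 16 comparisons (columns), the first-named group minus the second. Dots mark members that passed. The column of Ezh2-null against wild type at day 6, replicates 3-5, holds 35 dots, all in blue, and Mybl2 passed as lower in the 8 comparisons of later wild-type days and other cell types with wild-type day 0.

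In wild-type cells more members fell than rose after LIF withdrawal. Among the members, though not in the medians of the wider lists below, replication genes fell less often than mitosis genes. At day 2, 14 members fell and 1 rose against day 0, where 20.9% of all genes fell and 20.0% rose. At day 6, 19 members fell and none rose in replicates 1-2 (18.3% and 25.6% of all genes). In replicates 3-5, 24 fell and 3 rose (28.8% and 32.6%), and at day 8, 24 fell and none rose (20.4% and 27.7%). The medians over the members were -0.20, -0.42, -0.43 and -0.58, against 0.00 to 0.05 over all genes. All 6 spindle and cytokinesis genes fell at day 6 in both sets and at day 8, with medians of -0.84, -0.85 and -0.90. Of the 8 licensing genes none fell in replicates 1-2 of day 6, 5 in replicates 3-5 and 1 at day 8, with medians of -0.10, -0.38 and -0.18. Of the 5 fork and nucleotide genes 1 fell in each set of day 6 and 2 at day 8 (medians -0.23, -0.03 and -0.37). Each of these 2 roles had 1 fall at day 2. The lists of further genes of each process gave 15 of 28 replication genes and 19 of 37 mitosis genes lower at day 2 (medians -0.30 and -0.31). Lower were 15 and 23 in replicates 1-2 of day 6 (medians -0.50 and -0.51), 19 and 32 in replicates 3-5 (-0.75 and -0.77), and 19 and 24 at day 8 (-0.68 and -0.66). The medians of these lists thus lay close together each time. No difference between the processes was tested. Fibroblast markers summed to 7870.2 and 6774 at day 8, against 364 to 1809.8 at day 0, and their part was not tested.

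Mybl2 fell most in wild type. It gave 464, 449.5, 874 and 868 at day 2, 259, 233, 299.9, 305 and 313 at day 6 and 294 and 284 at day 8, against 1289 to 1886 (median 1700.3) at day 0. At day 2 replicates 3-4, which are CJ7, lay above replicates 1-2, which are J1, so line and set of arrays are the same split there, and the later arrays lay close together. The log2 differences were -1.31 ± 0.22, -2.57 ± 0.28, -2.29 ± 0.24 and -2.36 ± 0.28 (adjusted p from 7.0e-06 to 1.1e-10). Nusap1, a protein of spindle microtubules, gave 943, 981, 841 and 844 at day 2, 731, 583, 491, 621 and 671 at day 6 and 576 and 611 at day 8, against 1261 to 1733 (median 1534) at day 0, and fell by 1.31 by day 8. Ttk gave 555, 576, 407 and 407 at day 2, 351, 311, 294, 308 and 329 at day 6 and 264 and 294 at day 8, against 695 to 869.6 (median 755) at day 0, and fell by 1.35. For both genes the day 6 and day 8 arrays lay below every day 0 array. Kif23 fell by 0.87 in both sets of day 6 and by 1.30 at day 8, and Aurka by 1.27 at day 8.

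At day 6 of wild type 3 members rose, all in replicates 3-5. Foxm1 gave 360.3, 414 and 416 in replicates 3-5 of day 6 and 272 and 246 in replicates 1-2, against 250.1 to 299.8 (median 264) at day 0. E2f1 gave 626, 864 and 666 in replicates 3-5 and 499.5 and 552 in replicates 1-2, against 397 to 524 (median 489) at day 0. The rises in replicates 3-5 were 0.50 ± 0.12 and 0.54 ± 0.14, and neither gene passed in replicates 1-2 or at day 8. Tyms, on its dim probe set, gave 79.0, 116 and 96.4 in replicates 3-5 and 82.4 and 60.5 in replicates 1-2, against 50.1 to 90.0 (median 62.3) at day 0, with overlap between them (0.40 ± 0.12 in replicates 3-5, 0.29 ± 0.11 at day 2). Foxm1 at day 2 was 207, 255, 422 and 401, with replicates 3-4 (CJ7) above replicates 1-2 (J1). The parts of the set and the line in these rises were not tested.

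**Figure D5:**
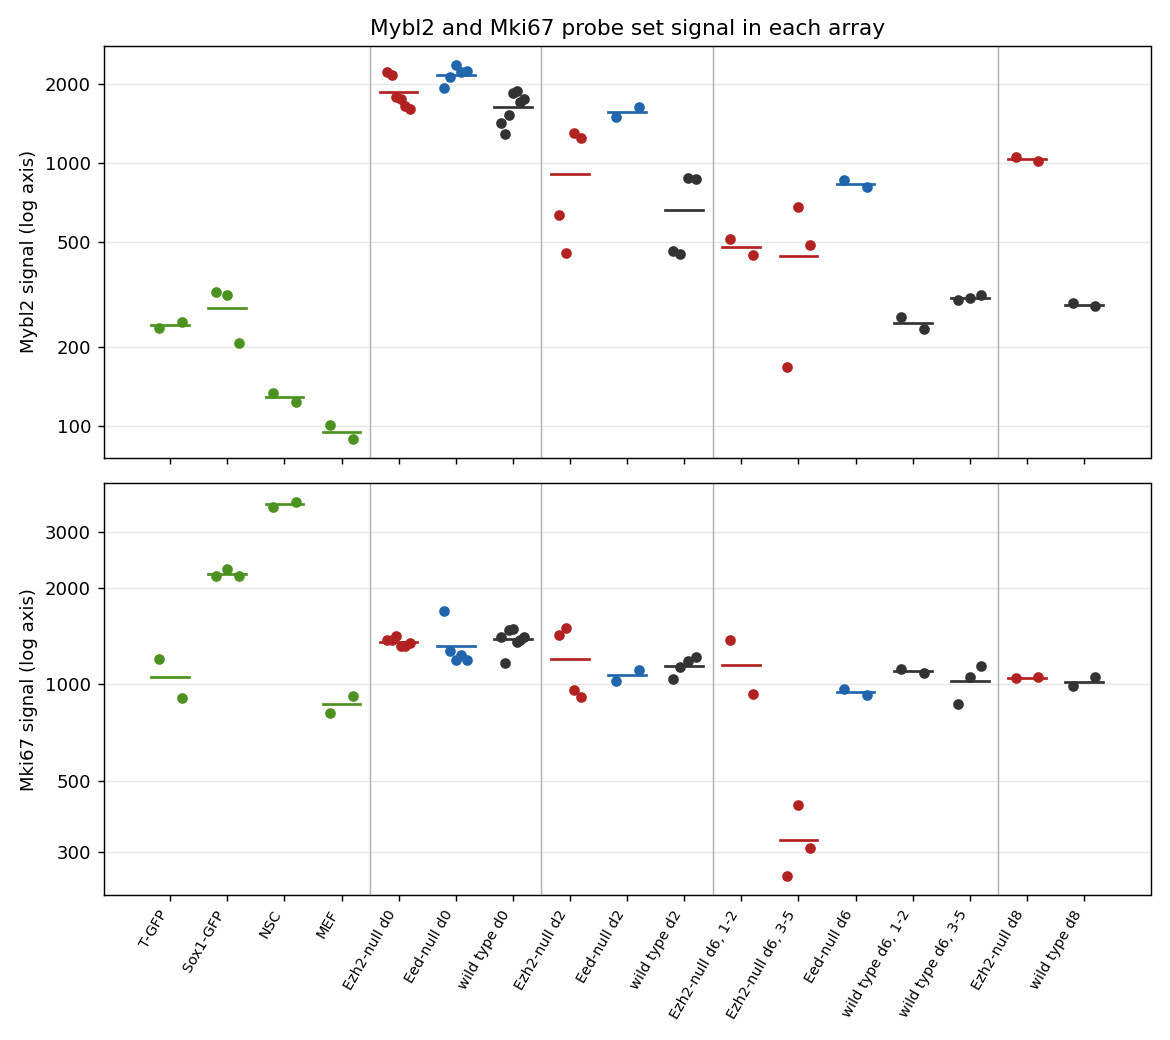
Signal of the Mybl2 and Mki67 probe sets in each array (vertical axes, log scale), by group and day, with bars at group means. Mybl2 is lowest in MEF (101 and 89.1) and stays above wild type at day 8 in Ezh2-null cells, and Mki67 is highest in neuronal stem cells (3580.4 and 3708) and lowest in Ezh2-null replicates 3-5 of day 6.

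In MEF 32 members fell and none rose (27.7% and 32.6% of all genes), with a median of -0.84 against undifferentiated wild-type cells. In neuronal stem cells 19 fell and 3 rose (30.4% and 32.5%, median -0.35). In Sox1-GFP cells 9 fell and 6 rose (18.2% and 32.2%, median -0.10), and in T-GFP cells 21 fell and 1 rose (20.6% and 26.0%, median -0.38). The 4 comparisons share the day 0 arrays. Without T-GFP replicate 2 the T-GFP count was 12 lower and 1 higher. With each array centred on its median these comparisons shift by -0.14 to -0.11, and in Sox1-GFP cells 18 members then fell and 3 rose (Rrm2, Mki67 and Aurkb).

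Mybl2 was low in all 4 cell types, with 235 and 248 in T-GFP, 322, 314 and 206 in Sox1-GFP, 133 and 124 in neuronal stem cells and 101 and 89.1 in MEF, against 1289 to 1886 (median 1700.3) in wild type. The log2 differences were -2.59 ± 0.28, -2.42 ± 0.24, -3.36 ± 0.28 and -3.70 ± 0.28, the largest of any member in each comparison. No array of these cells reached any day 0 array. Mki67 rose in neural cells, with 2182, 2288 and 2176 in Sox1-GFP and 3580.4 and 3708 in neuronal stem cells, against 1163 to 1484 (median 1404), rises of 0.67 ± 0.13 (adjusted p = 2.0e-05) and 1.38 ± 0.15 (adjusted p = 7.6e-11). In MEF Mki67 was 815 and 918, a fall of 0.65. Neuronal stem cells exceeded Sox1-GFP cells by 0.71 ± 0.17, and 2 members were higher (18.1% of all genes) and 11 lower (29.7%) between these cells.

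After Mybl2, the largest falls in MEF were those of the licensing factors Cdt1 and Cdc6. Cdt1 gave 912 and 940.5 in neuronal stem cells and 652 and 679.8 in MEF, against 2503 to 3164 (median 2617) in wild type, log2 differences of -1.52 and -1.97. Cdc6 gave 138 and 141 in MEF, against 438 to 845 (median 566), -1.79 ± 0.23, and all 8 licensing genes fell there. Aurka gave 692 and 719 in neuronal stem cells, against 1333 to 1869.9 (median 1676), and fell by 1.16. Its relative Aurkb rose in Sox1-GFP cells, with 993, 1017 and 885, against 481 to 646 (median 574), 0.72 ± 0.16 (adjusted p = 0.00015). Rrm2 also rose there (4720.1, 4918 and 4498, against 2816 to 4620.1 (median 2946), 0.50 ± 0.15), although 1 wild-type array lay within the Sox1-GFP values, and the difference from the J1 arrays alone was 0.10 (adjusted p = 0.73). Kif20a fell in Sox1-GFP cells (513, 535 and 527, against 723 to 1039 (median 986), -0.73 ± 0.13). In T-GFP cells Ttk (408 and 315, -1.02 ± 0.15) and Nek2 (404 and 355, against 623 to 831 (median 764), -0.93 ± 0.16) followed Mybl2. E2f1 and Foxm1 rose in neuronal stem cells, E2f1 at 826 and 707 and Foxm1 at 403 and 433 (0.64 ± 0.16 and 0.57 ± 0.14), and E2f1 in T-GFP cells (714 and 669.8, 0.50 ± 0.16). Between MEF and neuronal stem cells 23 members were lower in MEF (22.7% of all genes) and none higher (25.9%), Mki67 most (-2.03 ± 0.18).

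Most members varied together over the 17 means of groups and day 6 sets. Pearson's r between a member and the mean of the others was 0.96 for Cenpa, the centromeric histone, and 0.94 for Cenpf, and it was lowest for E2f1 (-0.31), Tyms (-0.16), Foxm1 (0.16) and Mybl2 (0.46). Without Ezh2-null replicates 3-5 of day 6 these were 0.91, 0.86, -0.34, -0.02, 0.00 and 0.63. For most other members r was then lower too. It went from 0.67 to 0.33 for Mki67 and Rrm2, from 0.66 to 0.40 for Rrm1 and from 0.81 to 0.47 for Birc5. It was slightly higher for Bub1b (0.89 to 0.91) and Cdc20 (0.68 to 0.70). The means share arrays, lines and array sets, so r is a description. Mybl2 had the widest range of group means, 4.11 on the log2 scale, then Mki67 (3.38) and Cenpf (2.81).

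Other genes of the same processes fell as well. In Ezh2-null cells of day 6, replicates 3-5, 27 of 28 further replication genes fell (median -0.93) and 34 of 37 further mitosis genes (median -0.88), and none rose in either list, where 17.4% of all genes fell and 12.9% rose. Lig1, the replicative DNA ligase, fell by 1.87, Orc6, of the origin recognition complex, by 1.34, and the condensin subunits Ncapd2 and Ncapg by 1.63 and 1.38. In replicates 1-2, where 2.45% of all genes fell, 4 of the 28 further replication genes fell (Orc6, Gins2, Tk1 and Rfc4, -1.04 to -0.57). No further mitosis gene passed there. In labelled Eed-null cells, where 6.98% of all genes fell, 9 of the 28 replication genes fell, Orc6 by 1.00, and 2 of the 37 mitosis genes, a share near that of all genes. In wild-type cells of day 6, replicates 3-5, where 28.8% of all genes fell against day 0, Orc1 fell by 1.29 and Ect2 by 1.61.

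Of 30 regulators of cycle entry and exit, 6 rose and 12 fell in Ezh2-null replicates 3-5 (12.9% and 17.4% of all genes). Among those that fell were Cdk2, the kinase of S phase entry (-0.69 ± 0.08), and Chek1, a kinase of the DNA damage checkpoint (-1.21 ± 0.17). Cdkn2b, the Cdk4 and Cdk6 inhibitor p15, gave 2279.8, 1947 and 2301 in Ezh2-null arrays of replicates 3-5, against 268, 185 and 205 in the wild-type arrays of those numbers, 3.15 ± 0.27 (adjusted p = 5.1e-12). Cdkn2a, which encodes p16 and p19Arf, gave 401, 306 and 336 in Ezh2-null arrays of replicates 3-5, against 23.5, 46.3 and 43.6 in the wild-type arrays of those numbers, 2.45 ± 0.24 (adjusted p = 6.6e-11). Neither gene overlapped between the genotypes. In replicates 1-2, where no member passed, Cdkn2a gave 446 and 674 in Ezh2-null replicates 1-2, against 30.9 and 69.2 in wild-type replicates 1-2, 2.86 ± 0.29, and Cdkn2b 750.1 and 1649 in Ezh2-null replicates 1-2, against 174 and 455 in wild-type replicates 1-2, 1.85 ± 0.34. In labelled Eed-null cells Cdkn2a was 187 and 210.3 (1.74 ± 0.26) and Cdkn2b 944 and 859 (1.91 ± 0.31) at day 6. Both genes were also higher in Ezh2-null cells at day 8 (2.10 ± 0.29 and 1.25 ± 0.34), where no member fell. Cdkn1a, the inhibitor p21, named here after its values were seen, gave 3635, 3064 and 3275 in Ezh2-null arrays of replicates 3-5, against 1319, 1065 and 1075 in the wild-type arrays of those numbers (1.51 ± 0.23), and 1483 and 2503 in Ezh2-null replicates 1-2, against 1151 and 1221 in wild-type replicates 1-2 (0.69 ± 0.28, not passed). Whether the inhibitors bear on the replication and mitosis genes was not tested.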

How the data were processed

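RNA of 53 samples in 15 groups was measured on Affymetrix arrays, 1 array per sample. The deposited values are intensity values of 45037 probe sets on a linear scale (0.4 to 33985.898, array medians 50.5 to 63.0). The sources used here do not give how the authors summarised and scaled these deposited intensities, and the number of arrays limits the precision. The platform annotation gives 1 symbol to 34945 probe sets, several to 932 and none to 9160. Symbols were matched to the current RefSeq gene table for 34741 and none changed. Per gene, the probe set with the highest mean was used (18193 genes), and 13807 genes that exceeded the array's median on 2 arrays or more were tested. The fit was 1 limma model (version 3.58.1, R 4.3.3) on log2(intensity + 32) with 17 means, 36 residual degrees of freedom and a Benjamini-Hochberg threshold of 0.05. It was tested on simulated data. Tables and figures used Python 3.11.15, pandas 2.3.3, numpy 2.4.6 and matplotlib 3.10.9. Comparisons with shared arrays are not independent.

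Members and gene lists were chosen with earlier results of these data known. Per comparison, values in every array are given for the 3 largest falls and rises among members that passed, and of other lists up to 4 genes with the smallest p are named. Replicate numbers paired the Ezh2-null and wild-type arrays of day 2 (correlations of deviations 0.57 to 0.70 over 4 pairs), which partly follows the sets of arrays. Alternatives were other scalings, pseudocounts, filters, probe set rules, blocks, wild-type lines and leaving out each array.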

Additional observations from a re-analysis of the deposited data

Results flagged for a closer look

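Each of 22 members and summaries was tested in each group of 4 to 10 arrays, 154 tests in all. In 9 of them 1 array lay far from the others, and chance gives about 1 in 20. Among wild-type arrays of day 0, replicate 2 lay apart in the median difference of the members (-0.09) and in Mki67 (1163.1), replicate 1 in Birc5 (2419.1) and replicate 3 in Bub1b (2165.2). Among Ezh2-null arrays, replicate 6 of day 0 lay apart in Aurkb (602.5), and replicate 4 of day 2 in Plk1 (1947.9) and Tyms (104.7). Among labelled Eed-null arrays of day 0, replicate 1 lay apart in Cenpf (1357.1) and Mki67 (1699.0).

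Differences between effects were tested as interaction terms. The change from day 0 to day 6, replicates 3-5, differed between Ezh2-null and wild-type cells in 35 members, and that between labelled Eed-null and wild-type cells in 5. The Ezh2-null effect at day 6 differed between replicates 3-5 and 1-2 in 28 members.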

How the results depend on the processing

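Of 239 alternative counts of members that passed, 186 were within 1.5 times the reported count and 53 were not. Over 231 member results that passed, 2987 of 3488 alternative values kept the call, 493 lost it and 8 changed sign. The cause was not tested for any of these. The count for Ezh2-null cells of day 6, replicates 3-5, stayed within 1.5 times under every alternative run. With array weights the counts were 1 (Ezh2-null day 0), 4 (day 2), 7 (day 6, replicates 1-2) and 5 (day 8), 20, 16 and 16 for labelled Eed-null at days 0, 2 and 6, and 23 for Sox1-GFP. Against J1 arrays only they were 4 and 1 (Ezh2-null days 0 and 2), 5, 8 and 3 (labelled Eed-null days 0, 2 and 6), 9 and 16 (wild-type day 2 and day 6, replicates 3-5) and 12 (T-GFP). Against CJ7 only they were 2 and 0 at day 2 for Ezh2-null and labelled Eed-null. With at least 2-fold they were 0, 1 and 1 (labelled Eed-null days 0, 2 and 6), 1 (Ezh2-null day 8), 1, 3, 5 and 5 (wild-type day 2, both sets of day 6, day 8), 2 (T-GFP), 1 (Sox1-GFP), 4 (neuronal stem cells) and 15 (MEF). With at least 1.5-fold they were 1 and 1 (labelled Eed-null days 0 and 6), 1 (Ezh2-null day 8), 3 and 16 (wild-type day 2 and day 6, replicates 3-5), 10 (T-GFP), 5 (Sox1-GFP) and 14 (neuronal stem cells). In a fit of only the arrays compared they were 0 and 11 (labelled Eed-null days 2 and 6) and 3 and 4 (Ezh2-null day 6, replicates 1-2, and day 8). Quantile normalisation gave 1 for each of these Ezh2-null comparisons, the mean of all probe sets 1 at day 8, and a pseudocount of 8, or wild-type replicates 3-4 only, 1 for labelled Eed-null day 2. With day 6 pooled over replicates 1 to 5 they were 31 (Ezh2-null, in place of replicates 1-2) and 1 (labelled Eed-null).

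With a replicate block the counts were 1 (Ezh2-null day 2; also 1 with the array set as a block), 10 (labelled Eed-null day 2) and 11 (T-GFP), and no other count moved by over 1.5 times. Outside Ezh2-null day 2, numbers were not read as pairs (correlations 0.30 in the 2 pairs of day 6, replicates 1-2, -0.04 to 0.08 in replicates 3-5, and -0.02 to 0.29 at Ezh2-null day 0). At day 8 (correlation -0.20) the crossed block gave 2, as did the uncrossed one. No paired analysis was possible for labelled Eed-null day 6 because it shares no number with wild-type replicates 3-5.

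Leaving out 1 array gave, for Ezh2-null, 0 to 0 (day 0), 0 to 1 (day 2), 0 to 0 and 33 to 35 (day 6, replicates 1-2 and 3-5) and 1 to 1 (day 8), and for labelled Eed-null 9 to 12, 0 to 3 and 1 to 5 (days 0, 2 and 6). It gave 9 to 16 (wild-type day 2, lowest without its replicate 3), 15 to 20 and 23 to 27 (day 6), 18 to 24 (day 8), 13 to 22 (T-GFP, lowest without replicate 2), 13 to 15 (Sox1-GFP), 17 to 22 (neuronal stem cells) and 27 to 32 (MEF).

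Signs turned with the mean of all probe sets for Mcm6 (0.05) and Cenpe (0.21) in labelled Eed-null day 0, Mcm5 (0.36) in wild-type day 2, Top2a (-0.29), Cenpe (-0.57) and Cenpf (-0.35) in Sox1-GFP, and Mcm2 (-0.56) and Ccna2 (0.07) in neuronal stem cells. Pooling day 6 turned, in the comparison of replicates 1-2, Mcm4 (-0.72), Rrm1 (-0.75), Cdk1 (-0.71), Ttk (-0.66), Cenpe (-0.53), Kif11 (-0.73), Kif23 (-0.99), Tpx2 (-0.40), Nusap1 (-0.77) and Mki67 (-0.93), and Foxm1 (0.28) in wild type. In wild-type day 2, array weights turned Cdc6 (0.44) and Foxm1 (-0.19), replicates 1-2 only Foxm1 (-0.21), and J1 only Tyms (-0.09), Nek2 (0.03), Cenpf (0.07) and Kif11 (0.08). Centring arrays on their medians moved the median of all genes by -0.16 to -0.11 in labelled Eed-null day 0, wild-type day 6 (replicates 1-2) and day 8 and the 4 other cell types, and split labelled Eed-null day 0 into 1 higher and 12 lower.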
